A study of Rattus norvegicus with 12 samples.

Results

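The oral arm of a rat cisplatin study compares 3 renal cortex arrays from animals dosed with cisplatin by gavage with 3 from animals given water by gavage, 6 of the 12 arrays of the series. The members were chosen by label: gavage as the route, and cisplatin or water as the treatment. The animals were male Sprague-Dawley rats bought at 5 weeks of age, and each array holds total RNA of 1 animal's renal cortex, the outer kidney. Cisplatin was given at 3.75 mg/kg/day for 4 weeks, and the controls received water for the same 4 weeks. The other experiment of the series gave cisplatin or water by intravenous injection, with cisplatin labelled 0.75 mg/kg/day for 4 weeks, also with 3 animals per group. By these labels route, dose and experiment changed together between the 2 experiments, but the treatment protocol gives 3.75 mg/kg/day for injection. The labels call the animals of a group replicates, so the errors below hold the spread between animals together with that of labelling and hybridisation.

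Cisplatin is a platinum compound that cross-links DNA. It is taken up by the proximal tubule, the part of the nephron that reabsorbs most filtered salt, sugar, amino acids and protein and that runs on mitochondrial and peroxisomal fuel burning. Injured tubule cells are known to lose transporters and the transcription factors that maintain them, to switch on p53 target genes, and to express keratins, adhesion proteins and secreted signals that the healthy tubule lacks. Cortex tissue also holds glomeruli, vessels, fibroblasts, immune cells and blood, and in such bulk RNA fewer cells of a type and less RNA per cell cannot be told apart.

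Levels are given throughout as log2 processed intensity minus the array's 75th percentile, and changes as the cisplatin mean minus the water mean on that scale with the standard error from limma. A feature, meaning a gene or an unnamed transcript accession, was called higher or lower at an adjusted p under 0.05. Of 32215 features tested, 19211 were called (59.6%), 9494 of them higher (29.5%) and 9717 lower (30.2%). The arrays of the 2 groups did not overlap for 10686 features in the higher direction (33.2%) and for 10975 in the lower one (34.1%). Relative to 7 spiked-in control RNAs in place of the percentile, the median change of all features was 0.66 and not 0.0013, so that 20054 features were higher and 3142 lower. A fall smaller than about 0.66 therefore turns round on that scale, and the falls described below are relative to the middle of the array. Several genes named below as not passing passed as higher on it: Aqp2 (1.15), Arpp21 (0.63), Bcl2 (0.77), Bmp7 (0.6), Cdh1 (0.69), Cldn23 (0.95), Dbp (0.71), Fasn (0.72), Mcl1 (0.84), Per1 (1.02), Prp2 (0.62), Rab5a (0.64) and Rab7a (0.75). With normexp background correction, which pulls dim levels up, 7959 features were higher and 12499 lower. Large changes were common: 4306 features rose and 3757 fell by more than 2-fold, 619 and 583 by more than 8-fold, and 100 and 91 by more than 32-fold. Among named genes 3811 were higher, 4120 lower and 4679 did not pass.

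**Figure D1:**
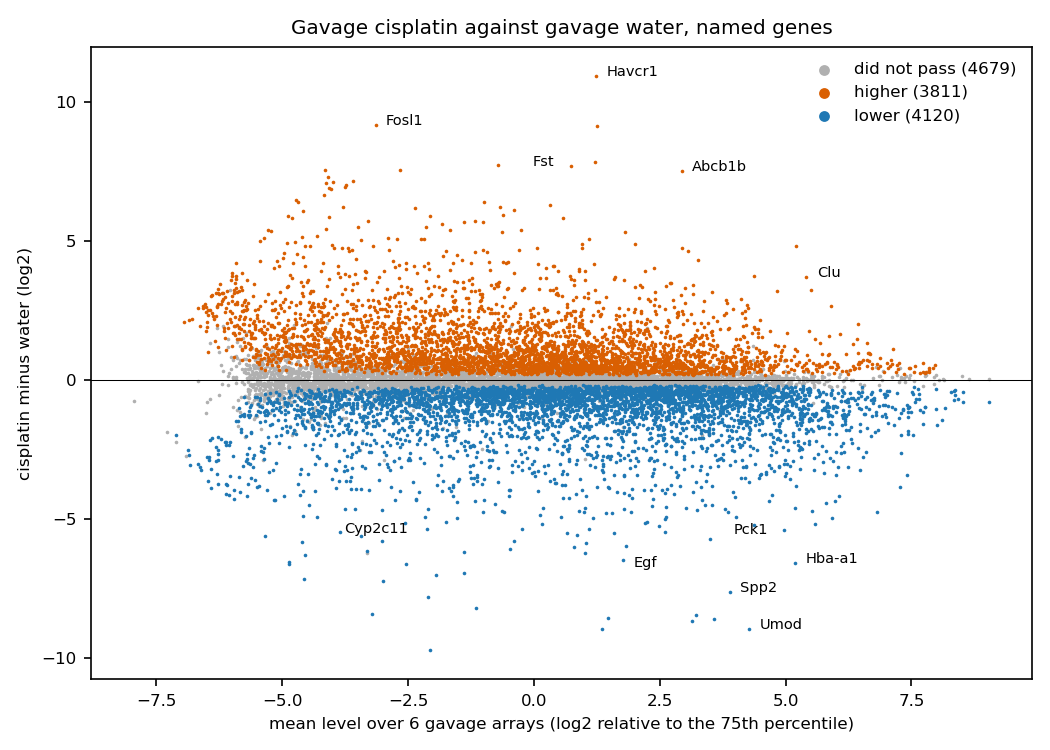
Change (cisplatin minus water, log2) of each of the 12610 named genes tested, against its mean level over the 6 gavage arrays (log2 relative to the 75th percentile). Orange and blue points passed the test as higher (3811) and lower (4120), grey points did not; the labelled genes include Havcr1 at 10.95 and Umod at -8.95.

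Between arrays of a group, r across probes was 0.988 to 0.993, and between water and cisplatin arrays 0.911 to 0.933. Slide 1 held the 3 water arrays and cisplatin replicate 1, and slide 2 held cisplatin replicates 2 and 3. A fit with the slide as a block uses only slide 1, and takes its single cisplatin array to vary like the rest. There 7041 features were called higher and 8103 lower, including 6843 and 7279 of those above. The 3′ minus 5′ probe difference of Gapdh, a measure of RNA integrity, was 2.37 to 2.43 in water and 2.17 to 2.3 with cisplatin, so that these ranges did not overlap. That of Pgk1 overlapped (5.52 to 5.64 against 5.49 to 5.65). The part of RNA integrity in the results was not tested.

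The largest rise was that of Havcr1, the gene of the tubule injury protein KIM-1. Its level was -4.01, -4.93 and -3.77 on the 3 water arrays and 6.92, 6.53 and 6.7 on the 3 cisplatin arrays, a change of 10.95 ± 0.36 (adjusted p = 4.25e-08). Il24, a cytokine of the IL-20 family, stood at -5.28, -4.37 and -4.11 in water and at 3.11, 3.11 and 3.26 with cisplatin. Its 3 cisplatin values lay closer together than the water values. Fst, the secreted activin antagonist follistatin, went from -3.13, -3.17 and -3.08 to 4.96, 4.46 and 4.33 and had the smallest p of all named genes (adjusted p = 3.51e-09). Abcb1b, a P-glycoprotein drug efflux pump, went from -1.07, -0.73 and -0.71 to 6.69, 7.08 and 6.35, so that the lowest cisplatin array still lay far above every water array.

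Gpnmb, a lysosomal glycoprotein, read -2.61, -3.19 and -2.65 in water and 3.5, 3.02 and 3.9 with cisplatin (6.29 ± 0.36). Gprc5a, an orphan receptor of epithelia, read -3.05, -2.89 and -2.96 and then 2.35, 2.24 and 2.76 (5.41 ± 0.17). Scel, which encodes the cornified-envelope protein sciellin, read -4.72, -4.8 and -4.84 and 0.23, 0.13 and 0.55 (5.09 ± 0.33). The 3 water values of each gene lay close together, and every cisplatin value stood several log2 units above them. Capg, an actin filament capping protein, was -1.25, -1.49 and -1.55 in water and 3.52, 3.52 and 3.85 with cisplatin (5.07 ± 0.29), and Slc4a11, a membrane transporter of the bicarbonate family, was -1.53, -1.72 and -1.2 and 3.55, 3.7 and 2.97 (4.89 ± 0.19). Adra1d, the alpha-1D adrenergic receptor, went from -2.22, -1.98 and -2.79 to 3.41, 3.37 and 3.72 (5.83 ± 0.2). Trpv6, an epithelial calcium channel, went from -5.2, -4.89 and -4.65 to 0.44, 0.57 and 0.83 (5.53 ± 0.28).

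Among the other large rises A2m, a broad protease inhibitor, rose by 5.96 ± 0.33, Ltbp2, a matrix protein of the latent TGF-beta binding family, by 6.42 ± 0.57 and Epdr1 by 5.71 ± 0.43. Bcat1, the cytosolic branched-chain aminotransferase, rose by 5.62 ± 0.41, Gdf15, a stress-induced hormone, by 4.88 ± 0.27, Fgb, a fibrinogen chain, by 5.32 ± 0.17, and Phlda3, a p53 target, by 5.33 ± 0.15. Less even was Scara5, a ferritin receptor, at 1.71, 1.16 and 2.68 on the cisplatin arrays. Lcn2 and Serpina3n had 1 water array apart, replicate 2, at -4.54 and -1.14. Their other water values were -1.8 and -1.79 for Lcn2 and -4.18 and -4.67 for Serpina3n. Without that array the changes were 6.93 for Lcn2 and 10.25 for Serpina3n, against 7.84 and 9.15 with it.

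Some of these sizes moved by more than 1.5 times with the processing. With normexp the changes were 9.9 for Havcr1, 8.21 for Serpina3n, 7.25 for Lcn2, 7.05 for Fst, 6.27 for Il24, 5.15 for Ltbp2, 5.08 for A2m and 4.89 for Scara5. They were 4.58 for Phlda3, 4.45 for Epdr1, 4.24 for Bcat1, 3.96 for Trpv6 and 3.54 for Scel. With the mean of all of a gene's probes, Abcb1b was 8.37, A2m 7.85 and Epdr1 4.05. With the slide as a block Serpina3n was 9.82 and A2m 5.19. Without water replicate 3 Serpina3n was 8.49. All of these changes kept their call in each of these settings.

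**Figure D2:**
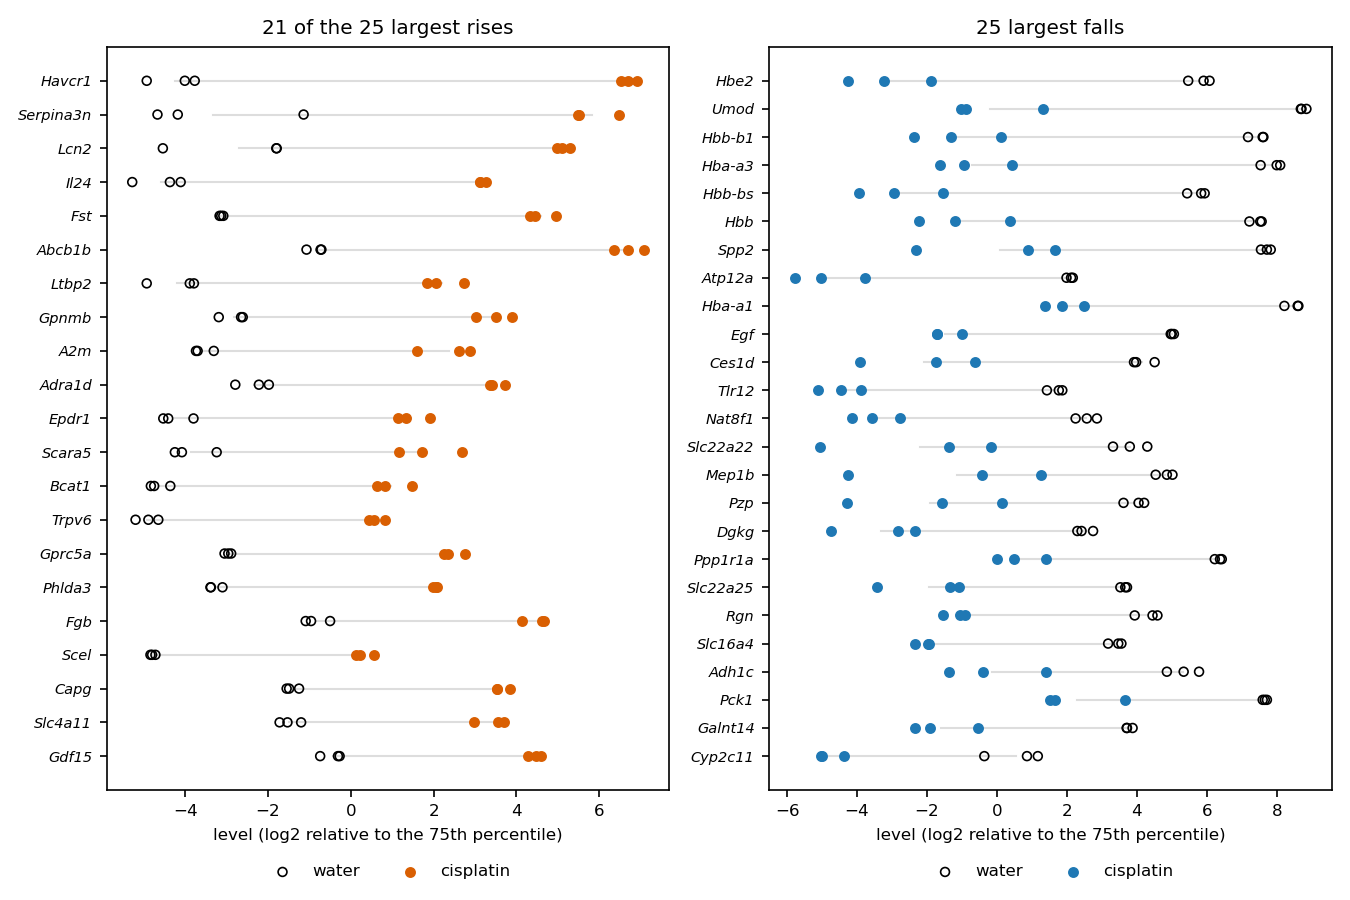
Level of 21 of the 25 largest rises (left) and the 25 largest falls (right) on each gavage array, in log2 relative to the array's 75th percentile. Open circles are the 3 water arrays and filled circles the 3 cisplatin arrays, and grey lines join the group means; in every row the 2 groups lie apart, as the rule that chose the genes required.

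Among the largest falls was Umod, which encodes uromodulin in the loop of Henle and was among the brightest probes in water, at 8.71, 8.85 and 8.69 in water and -1.04, 1.33 and -0.87 with cisplatin. Egf, the growth factor precursor made by the distal nephron, went from 4.97, 5.0 and 5.06 to -1.71, -1.0 and -1.71 (-6.48 ± 0.38). The 3 water arrays lay close together for both genes, and of the cisplatin arrays replicate 2 kept the highest value of both. Globins, whose transcripts come from red cells, also fell. Hba-a1, an alpha globin, stood at 8.62, 8.22 and 8.6 in water and at 1.38, 2.5 and 1.86 with cisplatin (-6.57 ± 0.35). Hbb, a beta globin, stood at 7.53, 7.22 and 7.57 and -1.19, 0.38 and -2.22 (-8.45 ± 0.56), and Hbe2, Hbb-b1, Hbb-bs and Hba-a3 changed by -8.95, -8.65, -8.54 and -8.59. Probes of such near-identical genes can share transcripts, so the single values are uncertain.

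Enzymes and transporters were among the other large falls. Pck1, the rate-limiting enzyme of gluconeogenesis, read 7.72, 7.6 and 7.66 in water and 1.65, 3.67 and 1.52 with cisplatin (-5.38 ± 0.96). Rgn, the calcium-binding protein regucalcin, read 4.45, 4.59 and 3.94 and -1.05, -0.91 and -1.53 (-5.49 ± 0.56). Slc16a4, a monocarboxylate transporter, read 3.56, 3.47 and 3.18 and -1.96, -1.93 and -2.35 (-5.48 ± 0.43). Rgn and Slc16a4 fell evenly in the 3 animals, whereas Pck1 kept more on replicate 2 than on the other cisplatin arrays. Ppp1r1a, an inhibitor of protein phosphatase 1, went from 6.23, 6.43 and 6.38 to 0.48, 1.41 and 0 (-5.72 ± 0.52), and Atp12a, the non-gastric proton-potassium pump, from 2.12, 1.99 and 2.17 to -5.03, -3.77 and -5.78 (-6.95 ± 0.82). Tlr12 changed by -6.17 ± 0.72, the acetyltransferase gene Nat8f1 by -6.06 ± 0.87, the alcohol dehydrogenase Adh1c by -5.45 ± 0.73, the carboxylesterase Ces1d by -6.24 ± 1.12, and Cyp2c11, a male-specific P450, by -5.36 ± 0.72. The diacylglycerol kinase Dgkg changed by -5.79 ± 0.91, Galnt14, which starts O-glycans, by -5.37 ± 0.78, and the organic anion transporter gene Slc22a25 by -5.59 ± 0.9.

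Single arrays and settings moved some of these falls by more than 1.5 times. Without cisplatin replicate 2 the change was -9.71 for Umod, -9.57 for Hbe2, -9.14 for Hbb, -9.17 for Hbb-bs, -9.31 for Hbb-b1, -6.97 for Ces1d, -6.21 for Adh1c and -6.07 for Pck1. Without replicate 3 it was -8.05 for Hbb-b1, -7.85 for Hbb, -5.32 for Ces1d, -5.08 for Dgkg, -4.85 for Slc22a25 and -4.83 for Adh1c. With the slide as a block Umod was -9.79, Pck1 -6.01 and Slc22a25 -4.98. With normexp Atp12a was -5.71, Nat8f1 -5.23, Tlr12 -5.19, Dgkg -5.12 and Cyp2c11 -3.9. With the mean of all probes Hba-a1 was -7.64, Hba-a3 -7.61 and Hbe2 -4.91.

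The promoters of these rises and falls, genes picked for the size and direction of their changes, were searched for short motifs. Windows of 250 bases before the start were taken from RefSeq promoter sequences of the GRCr8 assembly, which hold an entry for 15 of the 25 largest rises and 22 of the 25 largest falls. TGANTCA, the element bound by AP-1 factors, was found on either strand in 3 of the 15 rising genes (Gpnmb, Fgb and Scel), in 1 of the 22 falling genes (Adh1c) and in 6.34% of all 33469 promoters. These are the 3 rising genes' stretches, from GRCr8 and 5′ to 3′ on the gene's strand, with TGANTCA in capitals.
Gpnmb, chr4:79341016-79341072, plus strand: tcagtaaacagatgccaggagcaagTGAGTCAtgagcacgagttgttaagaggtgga
Fgb, chr2:170701078-170701125, minus strand: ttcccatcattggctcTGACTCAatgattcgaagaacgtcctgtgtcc
Scel, chr15:86754570-86754626, plus strand: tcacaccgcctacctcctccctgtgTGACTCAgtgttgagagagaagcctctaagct

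CCAAT, the box bound by NF-Y and C/EBP factors, lay in 5 rising and 13 falling genes, among the latter the alpha globins Hba-a1 and Hba-a3 and the beta globins Hbb, Hbb-b1 and Hbb-bs, and in 34.0% of all promoters. The stretch of the globin gene Hbb-bs follows, with CCAAT in capitals.
Hbb-bs, chr1:167631677-167631731, minus strand: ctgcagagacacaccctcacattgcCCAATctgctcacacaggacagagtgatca

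Of the other motifs, TGACNNNGC, the antioxidant response element, lay in 0 rising and 1 falling gene (Hba-a1) and 10.1% of all promoters. CAAAGTCCA, a form of the HNF4 site, lay in 1 rising gene (Trpv6) and 0 falling ones (0.338% of all). TGACGTCA, the cyclic AMP response element (1.59% of all), TGATGCAA, the C/EBP-ATF element (0.693%), and the E2F sites TTTCCCGC (0.813%) and TTTGGCGC (0.412%) matched none of the genes with an entry. TGANTCA and TGACGTCA or TGACNNNGC can overlap in their first letters. A match is a description of these letters in this window.

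Genes that crossed the detection limit give only a bound. The bound sets the brighter group's mean against the lowest signal that counted as well above background on each dim array, or the dim probe's own signal if higher. Of 45433 features, 953 were well above background on the 3 cisplatin arrays and on none of the water arrays, and 270 the other way round. The cisplatin arrays were brighter, with 71.3% to 73.9% of probes well above background against 68.0% to 69.3% on the water arrays. The part of this brightness in the 2 counts was not tested. Among called named genes with a bound these were 252 and 84. Fosl1, the AP-1 subunit FRA1, was 1.34, 1.42 and 1.58 on the cisplatin arrays and not well above background in water, and so was at least 143-fold higher. Dio3, which inactivates thyroid hormone, was 1.06, 1.3 and 1.03 and at least 114.1-fold higher, but its other measured probe changed by only 0.93 and the mean of all its probes by 4.25. Cthrc1, a secreted collagen triple-helix protein of matrix-forming cells, was 0.01, 0 and -0.04 and at least 51.9-fold higher. In each of these genes the 3 cisplatin arrays lay close together. Raet1ll1, named for the ligands of the NKG2D receptor of killer cells, was at least 44.7-fold higher, Lrat, which esterifies retinol, at least 40.8-fold, the carbonic anhydrase Car3 at least 38.7-fold and Atg9b, an autophagy scramblase, at least 38.0-fold. Vstm2b, Ctxn3 and the natriuretic peptide gene Nppc were at least 39.2-fold, 34.9-fold and 34.5-fold higher. Lost from detection were Spata22, a meiosis gene, at least 57.2-fold lower with water values of -0.99, 0.62 and -0.38, Dhrs2l1, a dehydrogenase-reductase, at least 34.3-fold lower, and Pcdh9, a protocadherin, at least 31.4-fold lower by the probe used here. The other measured probes of Pcdh9 changed by -4.83 and -0.15, and the mean of all its probes by -3.43. Eaf2, Iqch, Btg1b and the myosin light chain kinase Mylk3 were at least 25.7-fold, 23.1-fold, 22.4-fold and 20.8-fold lower. Pkd2l2, Tsga10ip and C10h16orf89 were at least 15.4-fold, 14.8-fold and 11.1-fold lower. These bounds hold for this background correction. With normexp the changes in log2 were smaller than the log2 of the bound for each of these genes, from 3.23 (Nppc) to 5.1 (Fosl1) among the rises and from -3.86 (Spata22) to -2.06 (C10h16orf89) among the falls.

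Spread between the arrays of a group was larger with cisplatin than with water. The 3 water arrays shared slide 1, whereas cisplatin replicate 1 lay on slide 1 and replicates 2 and 3 on slide 2. The cisplatin spread thus holds any difference between slides, which the water spread cannot, and the part of the slide was not tested. The median SD per feature was 0.126 among water arrays and 0.178 among cisplatin arrays. Among the 1331 features that fell over 4-fold it was 0.194 and 0.447, while among the 1556 that rose over 4-fold it was 0.285 and 0.290. Cisplatin replicate 3 had the lowest of the 3 cisplatin values in 73.7% of these falls and the highest in 57.6% of these rises. Replicate 1 did so in 16.3% and 19.5%, and replicate 2 in 9.99% and 22.9%.

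Of the genes given here, the widest spread between cisplatin arrays was that of Akr1c2, at -7.68, -8.08 and -1.77 on replicates 1, 2 and 3, followed by Slc27a5, a bile acid-CoA ligase, at -6.12, -0.71 and -0.48, and Adtrp at 2.33, -3.12 and -3.08. Replicate 3 stood apart for Akr1c2 and replicate 1 for Slc27a5 and Adtrp. Replicate 1 was also the only cisplatin array on slide 1. Mep1b, a brush border metalloprotease, was 4.86, 5.02 and 4.54 in water and -0.43, 1.27 and -4.27 on cisplatin replicates 1, 2 and 3. Slc22a22, a prostaglandin-transporting organic anion carrier, was -1.36, -0.17 and -5.06, Spp2, a secreted phosphoprotein, 0.88, 1.66 and -2.3, and Pzp, an alpha-macroglobulin, -1.56, 0.15 and -4.3. In these genes replicate 2 kept the most and replicate 3 the least. Slco1a1, an organic anion transporter, was -8.08, -4.37 and -8.33 and Hrg, a histidine-rich plasma glycoprotein, -4.28, -3.08 and -8.38. Ypel4, not well above background in water, was -4.41, -4.09 and -0.1 and at least 7.17-fold higher. Some cisplatin arrays of the falling genes were not well above background either: only 1 of 3 was for Akr1c2 and Slco1a1, and 2 of 3 for Hrg and Slc27a5, so that their lowest levels and the sizes of their changes are uncertain.

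The changes of these genes varied with the arrays included. Without cisplatin replicate 2, and without replicate 3, Mep1b was -7.16 and -4.38, Slc22a22 -7.02 and -4.57, Spp2 -8.41 and -6.43, and Pzp -6.89 and -4.67. Slc27a5 was -3.11 with all arrays, -1.27 without cisplatin replicate 1, -6.79 with a slide block, -3.97 without replicate 2 and -4.09 without replicate 3. A slide block ended the calls of Mep1b (-5.23) and Slc22a22 (-5.16), and those of Adtrp (-1.33), Akr1c2 (-8.44) and Ypel4. Leaving out any 1 water array ended the calls of Adtrp, Akr1c2, Slc27a5 and Ypel4. The first 3 then lay between -5.13 and -4.69, -6.71 and -6.46, and -3.36 and -2.97. Calls also ended without cisplatin replicate 2 for Adtrp (-4.03) and Akr1c2 (-5.49), replicate 3 for Adtrp (-4.05) and Ypel4, and replicate 1 for Akr1c2 (-5.69). Akr1c2 and Slc27a5 also lost the call with spike-in scaling (-5.95 and -2.45) and with no filter, Akr1c2 with quantile normalization (-6.47), Slc27a5 in the 6 gavage arrays alone, and Ypel4 with normexp and with no filter. The narrowest of the changes over 3 log2 units were rises, Raet1ll1 and Cthrc1 above among them. Ckap2, a mitotic spindle protein, was 1.96, 1.95 and 1.99 on the cisplatin arrays against -1.3, -1.71 and -2.11 in water, Slco4a1 1.61, 1.64 and 1.6 against -2.36, -2.63 and -2.91, and the death receptor Fas 1.54, 1.59 and 1.51 against -2.5, -2.58 and -2.92. The laminin chain Lamb3 was 1.71, 1.79 and 1.73 against -1.42, -1.31 and -1.93, Nradd 0.53, 0.53 and 0.48 against -2.94, -3.07 and -2.89, Slc66a3 2.5, 2.43 and 2.44 against -1.5, -1.73 and -1.77, the cyclin Ccne1 -0.41, -0.46 and -0.46 against -3.55, -3.83 and -3.94 and the phosphatase Ppm1n 1.98, 2.03 and 2.07 against -1.13, -1.09 and -1.08. Among the smallest p-values were also Tnfrsf12a, the receptor of TWEAK, at 0.69, 0.83 and 0.66 and then 5.46, 5.32 and 5.4, Sfnl1 at -0.74, -0.81 and -0.78 and 2.91, 2.76 and 2.79, Clu, a secreted chaperone, at 3.57, 3.56 and 3.53 and 7.35, 7.13 and 7.32, and Pinlyp, at least 18.1-fold higher.

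Gene lists were read against the shares of all features called, 29.5% higher and 30.2% lower; each has its count and its median change, and the medians of all features stand above. Structural proteins of epithelium and stroma mostly rose. Of 28 genes of the actin cytoskeleton 23 rose, 1 fell and 4 did not pass (median 1.33). The crosslinker Flna rose by 3.0 ± 0.23, the smooth muscle protein Tagln by 3.34 ± 0.33, the thymosin Tmsb10 by 2.72 ± 0.18 and Actn1 by 2.12 ± 0.19, while Vil1, the microvillus protein villin, changed by -0.99 ± 0.091. Of 15 keratins and other intermediate filaments 9 rose, 1 fell and 5 did not pass (median 1.22, 0.87 with a dim member at its bound). Vim was 0.99, 1.01 and 0.92 in water and 4.41, 4.15 and 4.81 with cisplatin (3.48 ± 0.24), and the simple-epithelium keratins Krt8, Krt18 and Krt19 rose by 1.22 ± 0.14, 2.48 ± 0.31 and 2.48 ± 0.56. Of 21 annexins and S100 proteins, which bind calcium at membranes, 13 rose, 4 fell and 4 did not pass (median 1.2). S100a11, Anxa2 and its partner S100a10 rose by 3.43 ± 0.21, 3.23 ± 0.16 and 2.9 ± 0.15, and Anxa13 changed by -4.0 ± 0.5 (-2.88 with normexp). S100a8 and S100a9, the neutrophil pair, gave -0.94 and -1.04 and did not pass, but passed without cisplatin replicate 3 (-1.6 and -1.62). Of 19 mucins and luminal glycoproteins 11 rose and 3 fell (median 0.78), with the galectins Lgals3 and Lgals1 at 3.74 ± 0.24 and 2.66 ± 0.31.

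Junction genes went both ways, as features did as a whole. Of claudins and tight junction proteins 40% were called higher and 20% lower. Of cadherins and catenins these shares were 35.7% and 28.6%, and of all features 29.5% and 30.2%. Of 20 claudins and tight junction proteins 8 rose, 4 fell and 8 did not pass (median 0.22). Cldn4 was 0.09, 0.37 and 0.29 in water and 3.98, 4.2 and 4.34 with cisplatin, and Cldn7, Cldn3 and Cldn1 rose by 2.25 ± 0.18, 2.18 ± 0.17 and 1.99 ± 0.32. Cldn10, a claudin of the cation- and anion-selective nephron segments, changed by -2.33 ± 0.29. Of 14 cadherins and catenins 5 rose and 4 fell (median 0.35). Cdh6 and Cdh13 rose by 1.49 ± 0.16 and 1.97 ± 0.2, and the epithelial Cdh1 gave 0.035 and did not pass. Of 12 integrins 6 rose and 3 fell (median 0.76). The beta and alpha chains of one laminin receptor parted: Itgb4 went from 0.63, 0.5 and 0.53 to 5.41, 5.21 and 5.35 (4.77 ± 0.24), and Itga6 changed by -1.16 ± 0.16. Of 10 laminins and basement membrane genes 8 rose and 1 fell (median 1.07). Lamb3 and Lamc1 rose by 3.29 ± 0.24 and 1.3 ± 0.13, and Col4a4, a chain of the mature glomerular network, changed by -2.7 ± 0.25. Of 24 matrix proteases and plasminogen genes 16 rose and 4 fell (median 1.27, 1.17 with a bound). The gelatinase Mmp2 rose by 3.39 ± 0.3, its membrane-bound activator Mmp14 by 2.39 ± 0.21 and Adamts1 by 2.79 ± 0.18, and Plau, the urokinase, changed by -1.18 ± 0.21 (-0.52 with spike-in scaling, where it did not pass). Fibroblast markers moved with these lists: 6 of 6 rose, with a mean level of 0.56 to 1.07 in water and 2.59 to 3.17 with cisplatin, Lum being not well above background in water. The call of Lum ended with normexp (0.21), with the slide as a block (2.48), without water replicate 2 (1.86) and without cisplatin replicate 3 (1.96). Of the 6 smooth muscle and pericyte markers 4 rose (-1.51 to -1.16 against -0.66 to -0.25). Their part in these counts was not tested.

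**Figure D3:**
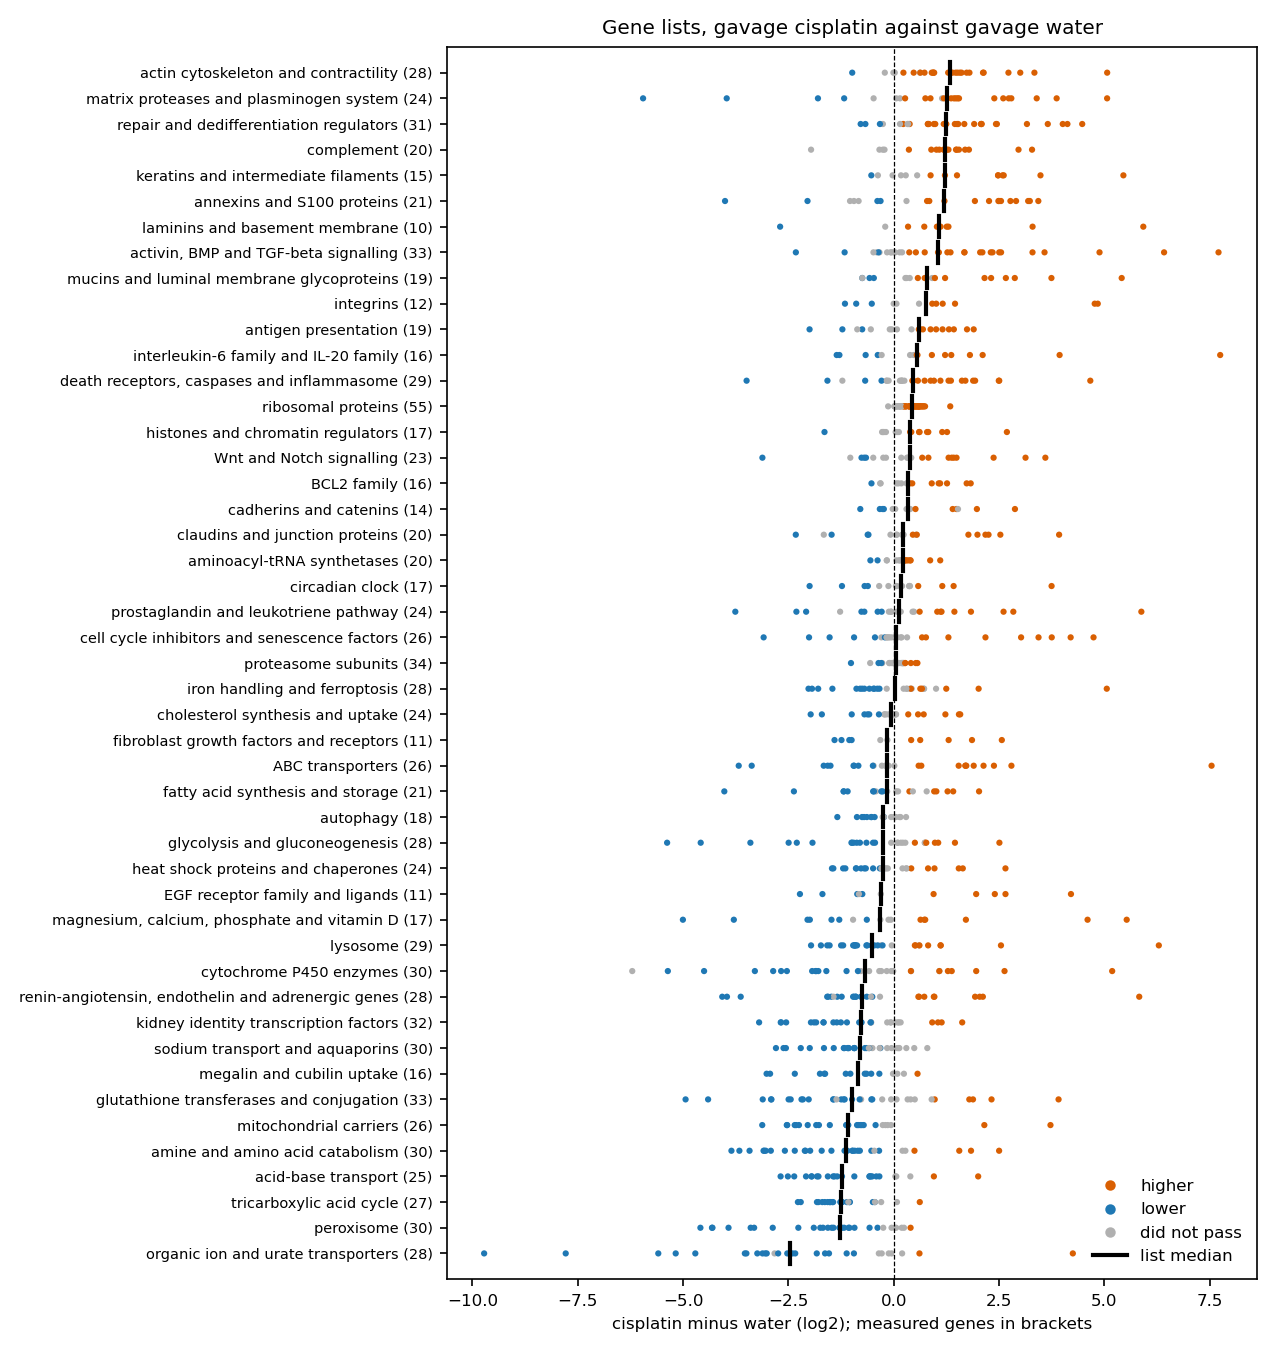
Change (cisplatin minus water, log2) of every measured member of the 47 gene lists, one list a row in order of its median. Points are genes, orange and blue where they passed the test as higher and lower and grey where they did not; black bars are list medians, from -2.47 for organic ion transporters to 1.33 for the actin cytoskeleton, and the dashed line is the median of all features.

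Among secreted signals, the activin, BMP and TGF-beta list rose most often: of 33 genes 20 rose, 3 fell and 10 did not pass (median 1.05). Besides Fst and Gdf15, the ligand Bmp2 rose by 2.05 ± 0.26 and the CCN protein Ccn1 by 2.5 ± 0.15, while Bmp4 and the BMP target Id2 changed by -1.17 ± 0.12 and -2.32 ± 0.15. Tgfb3 and the protease Bmp1, which frees BMPs, rose by 2.34 ± 0.32 and 2.1 ± 0.26. Bmp7, a BMP of the nephron, gave -0.057 and did not pass. Of 11 listed genes of the EGF receptor family and its ligands 5 rose and 4 fell (median -0.31, but 0.35 with spike-in scaling). Egf itself, which changed by -6.48 ± 0.38, was not in this list. The ligand Hbegf went from -2.64, -2.36 and -2.11 to 0.15, -0.02 and 0.71 (2.65 ± 0.2) and Areg from -1.33, -2.04 and -1.93 to 0.35, 0.78 and 0.76 (2.4 ± 0.43). The receptor Egfr rose by 0.95 ± 0.11, and Erbb3 changed by -2.23 ± 0.23. Of 23 Wnt and Notch genes 9 rose, 4 fell and 10 did not pass (median 0.38, but -0.021 with normexp), with Dkk3, a secreted Dickkopf protein, at 3.6 ± 0.29 and the receptor Notch1 at 1.3 ± 0.1. Of 11 fibroblast growth factor genes 5 rose and 4 fell (median -0.15, but 0.51 with spike-in scaling). The receptor Fgfr4 changed by -1.41 ± 0.18 and the ligand Fgf9 by -1.05 ± 0.12. Of 16 genes of the IL-6 and IL-20 families 9 rose and 4 fell (median 0.55). Cntf, a ciliary neurotrophic factor, was -1.11, -0.86 and -1.23 in water and 3.0, 2.51 and 3.09 with cisplatin, and the receptor Il6r, the shared chain Il6st and Stat3 rose by 1.37 ± 0.21, 0.55 ± 0.081 and 0.9 ± 0.16. The receptor Lifr and its ligand Ctf1 changed by -1.29 ± 0.2 and -1.35 ± 0.11.

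Of 20 complement genes 16 rose, 0 fell and 4 did not pass (median 1.22). C6, of the membrane attack complex, rose by 3.28 ± 0.55, Cfd, which cleaves factor B, by 2.96 ± 0.38, C2 by 1.78 ± 0.36, C1s by 1.5 ± 0.17, the inhibitor Serping1 by 1.48 ± 0.18 and the receptor C5ar1 by 1.55 ± 0.2. Cfb itself gave -0.26 and did not pass. Of 19 antigen presentation genes 10 rose and 3 fell (median 0.59). Rises in the class I peptide pathway included the transporter Tap1 (1.9 ± 0.35) and the immunoproteasome subunits Psmb10 (1.74 ± 0.22), Psmb8 (1.43 ± 0.27) and Psmb9 (1.16 ± 0.24). Ciita, the class II transactivator, changed by -2.0 ± 0.42. Macrophage markers moved with these lists, 5 of 6 rising, with a mean level of -3.17 to -2.77 in water and -0.44 to 0.26 with cisplatin. Cd163 and Itgam were not well above background in water, and the part of macrophage RNA was not tested.

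Of 29 death receptor, caspase and inflammasome genes 16 rose and 4 fell (median 0.47). Ripk3, the kinase of necroptosis, rose by 2.5 ± 0.15, Casp12 by 2.49 ± 0.15, the TNF receptor Tnfrsf1a by 1.7 ± 0.081 and the inhibitor Birc3 by 1.93 ± 0.21. Tnfrsf11b, the decoy receptor osteoprotegerin, changed by -3.49 ± 0.59, and Cycs, cytochrome c, by -1.57 ± 0.17. Of 16 BCL2 family genes 8 rose and 1 fell (median 0.35), with the pore formers Bak1 and Bax at 1.83 ± 0.12 and 1.26 ± 0.087, the activator Bik at 1.73 ± 0.1 and the protector Bcl2l1 at 0.9 ± 0.1. Bcl2 and Mcl1 gave 0.11 and 0.18 and did not pass, Mcl1 passing with quantile normalization (0.28). Of 26 cell cycle inhibitors and senescence factors 9 rose and 6 fell (median 0.055, but -0.1 on slide 1 alone). Btg2, an antiproliferative p53 target, went from 0.52, 0.45 and 0.19 to 3.56, 3.84 and 4.07 (3.44 ± 0.14) and Hmga1 rose by 2.18 ± 0.27, while Igfbp5 and Igfbp3 changed by -3.09 ± 0.28 and -2.01 ± 0.24. The kinase inhibitor gene Cdkn1b gave -0.29 and did not pass, except with the mean of all probes (-0.37). Of 17 chromatin genes 9 rose and 1 fell (median 0.39), with the chromatin assembly subunit Chaf1b at 2.69 ± 0.18, Hmgb2 at 1.15 ± 0.18 and the mitochondrial deacetylase Sirt3 at -1.64 ± 0.14.

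Transcription factors of the mature nephron and of repair went opposite ways. Of 31 repair and dedifferentiation regulators 24 rose, 3 fell and 4 did not pass (median 1.25). Atf3, a stress-induced factor, was -1.47, -0.54 and -1.35 in water and 2.65, 3.08 and 2.95 with cisplatin (4.01 ± 0.28). Runx1 went from -1.02, -1.15 and -1.11 to 2.38, 2.26 and 3.04 (3.66 ± 0.24), and Sox4, Myc, Klf6 and Klf4 rose by 2.07 ± 0.13, 2.45 ± 0.2, 2.43 ± 0.17 and 1.91 ± 0.15. The surface protein Cd24, seen on regenerating tubules, rose by 1.67 ± 0.13, and the hepatocyte growth factor receptor Met by 1.45 ± 0.11. Of 32 kidney identity factors 4 rose, 19 fell and 9 did not pass (median -0.77, -0.11 with spike-in scaling). Hnf4a, which drives proximal tubule genes, was 4.06, 4.09 and 3.8 in water and 1.03, 0.8 and 0.52 with cisplatin (-3.2 ± 0.3). Maf, also of the proximal tubule, went from 2.42, 2.42 and 2.43 to 0.1, -0.44 and -0.41 (-2.67 ± 0.18). The bile acid receptor Nr1h4 and the distal factors Tfcp2l1 and Sim1 changed by -2.68 ± 0.29, -1.35 ± 0.13 and -1.25 ± 0.13. Pax8, of the developing and adult nephron, and Elf3, of injured epithelia, rose by 1.14 ± 0.16 and 1.62 ± 0.17. Of 17 clock genes 4 rose, 4 fell and 9 did not pass (median 0.16). Bmal1 changed by -1.23 ± 0.17 and the kinase Csnk1e by 1.15 ± 0.21, whereas Dbp, Per1 and Per2 gave 0.053, 0.36 and -0.35 and did not pass, Per2 passing without cisplatin replicate 3 (-0.63).

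Lists of mitochondrial and peroxisomal metabolism fell more often than they rose. Of 27 genes of the tricarboxylic acid cycle 22 fell, 1 rose and 4 did not pass (median -1.25). Idh2 was 7.42, 7.44 and 7.52 in water and 5.19, 5.26 and 5.1 with cisplatin (-2.27 ± 0.11), and Sdha, Fh and Pdha1 changed by -1.57 ± 0.14, -1.52 ± 0.12 and -1.26 ± 0.084. The gene that rose was Pdk1, a kinase that shuts pyruvate dehydrogenase (0.62 ± 0.13). Of 26 mitochondrial carriers 20 fell and 2 rose (median -1.09). Slc25a10, the dicarboxylate carrier, changed by -2.53 ± 0.29, the ornithine carrier Slc25a15 by -2.32 ± 0.27 and Slc25a25 by -3.12 ± 0.56. Those that rose were Slc25a24, an ATP-magnesium phosphate carrier (-0.05, -0.47 and -0.23 in water and 3.51, 3.23 and 3.67 with cisplatin), and Ucp2 (2.15 ± 0.092). Of 30 peroxisomal genes 23 fell and 1 rose (median -1.28). Catalase, Cat, went from 3.26, 3.38 and 3.25 to 0.05, 0.15 and -0.49 (-3.4 ± 0.31), and the D-amino acid oxidase Dao from 5.5, 5.47 and 5.51 to 1.59, 1.72 and 0.23 (-4.31 ± 0.46). Pex14, of the import channel, rose by 0.4 ± 0.12, and its partners Pex13 and Pex5 changed by -1.43 ± 0.089 and -1.47 ± 0.11.

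Of 28 genes of glycolysis and gluconeogenesis 7 rose and 14 fell (median -0.25, but 0.41 with spike-in scaling). The glucose-making enzymes G6pc1 and Fbp1 went from 7.39, 7.45 and 7.57 to 2.87, 3.74 and 2.06 (-4.58 ± 0.6) and from 9.21, 9.08 and 9.08 to 5.83, 6.65 and 4.68 (-3.4 ± 0.57), and the glucose 6-phosphate carrier Slc37a4 changed by -2.49 ± 0.11. The glycolytic Pfkp, Ldha, Pkm and Hk1 rose by 1.45 ± 0.092, 0.98 ± 0.1, 0.77 ± 0.1 and 0.74 ± 0.092, and Ldhb and the liver-type kinase Pklr changed by -1.93 ± 0.17 and -2.3 ± 0.24. Of 30 listed genes of amine and amino acid metabolism 23 fell and 4 rose (median -1.13). The list was drawn beyond a separate list of tubule genes and did not hold Bcat1, which rose by 5.62 ± 0.41. The creatine-making Gatm and Gamt changed by -3.85 ± 0.47 and -3.42 ± 0.52, the arginine-making Ass1 and Asl by -3.04 ± 0.36 and -2.09 ± 0.19, and the serine-making Psat1 and Phgdh by -2.92 ± 0.16 and -1.71 ± 0.11. Those that rose included the asparagine synthetase Asns (2.5 ± 0.12), the folate enzyme Mthfd2 (1.83 ± 0.26) and Arg1 (1.55 ± 0.2). Of 30 P450 enzymes 13 fell and 7 rose (median -0.68, -0.023 with spike-in scaling). The arachidonic acid epoxygenase Cyp2c23 and the hydroxylase Cyp4f1 changed by -1.94 ± 0.37 and -2.86 ± 0.49, and Cyp7b1 rose by 1.38 ± 0.17. Of 33 conjugation genes 19 fell and 5 rose (median -0.99), with Gsta1 at -2.45 ± 0.16, Mgst3 at -2.02 ± 0.16, and Gstm5 and Gstp1 at 2.32 ± 0.23 and 0.97 ± 0.2. Members of the transferase families are close copies, so that single values are uncertain.

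In the cholesterol list 25% of genes were called higher and 29.2% lower, close to the 29.5% and 30.2% of all features. Of 24 cholesterol genes 6 rose, 7 fell and 11 did not pass (median -0.065, but 0.59 with spike-in scaling). Sqle, which makes squalene epoxide, rose by 1.58 ± 0.17, and Dhcr7, of the last steps, changed by -1.71 ± 0.3. Of 21 genes of fatty acid synthesis and storage 6 rose and 9 fell (median -0.16, but 0.5 with spike-in scaling). The desaturase Scd2 and the elongase Elovl6 rose by 2.02 ± 0.19 and 1.41 ± 0.25, Elovl1 changed by -1.19 ± 0.1, and the synthase Fasn gave 0.059 and did not pass.

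Most transport lists fell more often than they rose. Of 28 organic ion and urate transporters 20 fell and 2 rose, and the list had the lowest median of the 47 (-2.47). The carnitine transporter Slc22a5 went from 2.24, 2.37 and 1.5 to -1.5, -0.76 and -0.69 (-3.01 ± 0.35) and the peptide transporter Slc15a2 from 0.37, 0.89 and 0.28 to -2.58, -2.78 and -3.7 (-3.53 ± 0.52). Slc28a1, for nucleosides, and Slc23a1, for ascorbate, changed by -3.24 ± 0.34 and -2.53 ± 0.34, and Slco4a1 rose by 4.25 ± 0.15 (3.28 with the mean of all probes). Of 30 listed sodium transport and aquaporin genes 0 rose, 19 fell and the other 11 did not pass (median -0.81, -0.15 with spike-in scaling). This list did not hold the aquaporin Aqp4, which rose by 4.17 ± 0.34. The water channel Aqp1 and the loop-diuretic target Slc12a1 went from 6.98, 6.96 and 6.95 to 4.31, 5.06 and 3.14 and from 4.81, 4.75 and 4.54 to 2.14, 2.56 and 1.73. Aqp2 and Aqp3 of the collecting duct gave 0.49 and -0.16 and did not pass. Of 25 acid-base genes 20 fell and 2 rose (median -1.23), with the carbonic anhydrases Car4 and Car12 at -2.36 ± 0.23 and -2.51 ± 0.21, the bicarbonate exporter Slc4a4 at -1.56 ± 0.18 and the ammonia channel Rhcg at -1.95 ± 0.29. Slc4a3 rose by 0.95 ± 0.11. Not in this list were Slc4a11 (4.89 ± 0.19), the carbonic anhydrase Car3 (at least 38.7-fold higher) and the pump Atp12a (-6.95 ± 0.82).

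Of 17 genes of magnesium, calcium, phosphate and vitamin D 6 rose and 7 fell (median -0.32, but 0.34 with spike-in scaling). The parathyroid hormone receptor Pth1r went from 4.81, 4.75 and 4.82 to 1.07, 1.32 and 0.61 (-3.8 ± 0.37), and the magnesium-handling Cnnm2 and the vitamin D receptor Vdr changed by -1.99 ± 0.16 and -1.29 ± 0.22. The calcium channel Trpv5 rose by 1.71 ± 0.24, as did Trpv6 above. Of 16 genes of megalin and cubilin uptake 12 fell and 1 rose (median -0.86). Lrp2, which is megalin, and Amn, the partner of cubilin, changed by -2.35 ± 0.25 and -3.02 ± 0.36, the folate receptor Folr1 by -1.65 ± 0.14 and the chloride-proton exchanger Clcn5 by -1.14 ± 0.14. The endosomal Rab5a and Rab7a gave -0.018 and 0.086 and did not pass. Of 26 ABC transporters 11 rose and 9 fell (median -0.16, but 0.5 with spike-in scaling). Abca1 and Abcg1, which export cholesterol, rose by 2.79 ± 0.33 and 2.13 ± 0.35 and Abcc5 by 1.54 ± 0.19, while the urate and drug exporter Abcg2 and Abcc6 changed by -1.66 ± 0.29 and -1.57 ± 0.21.

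Of 28 renin-angiotensin, endothelin and adrenergic genes 9 rose and 16 fell (median -0.77, -0.11 with spike-in scaling). Ace, which makes angiotensin II, went from -1.22, -0.7 and -0.99 to 1.0, 1.14 and 0.75 (1.93 ± 0.25), and Anpep, which trims angiotensins at the brush border, from 4.06, 5.14 and 4.74 to 0.61, 0.89 and 0.22 (-4.07 ± 0.55). Adra2a rose by 2.11 ± 0.18 and the endothelin-converting Ece1 by 0.96 ± 0.17, and Adra1a and the neprilysin gene Mme changed by -1.24 ± 0.1 and -1.58 ± 0.33. Of 24 prostaglandin and leukotriene genes 9 rose and 7 fell (median 0.12, but -0.025 with normexp). Ptgds, a prostaglandin D synthase, went from 4.99, 4.54 and 4.27 to 1.15, 0.54 and 0.83 (-3.76 ± 0.6), the degrading Hpgd changed by -2.08 ± 0.47, and the arachidonate-releasing Pla2g4a and Alox5ap rose by 1.03 ± 0.14 and 1.11 ± 0.14. Ptgs2 gave 0.17 and did not pass (-0.61 with the slide as a block).

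Of 55 ribosomal protein genes 39 rose, 0 fell and 16 did not pass, with a median of 0.44. Rps19 rose by 1.34 ± 0.092 and Rpl13 by 0.63 ± 0.084, and many of these genes have processed copies that a probe can also detect. Of 34 proteasome subunits 26 did not pass, 5 rose and 3 fell (median 0.054). Of 20 tRNA synthetases 10 rose and 2 fell (median 0.22), with Vars1 at 1.1 ± 0.1 and Gars1 at 0.86 ± 0.14. Of 24 heat shock proteins and chaperones 6 rose and 11 fell (median -0.25, but 0.41 with spike-in scaling). The small heat shock proteins Cryab and Hspb1 rose by 2.65 ± 0.28 and 1.64 ± 0.17, and the mitochondrial pair Hspd1 and Hspe1 changed by -1.15 ± 0.16 and -1.2 ± 0.13 and Hsph1 by -1.47 ± 0.2. Of 29 lysosomal genes 8 rose and 18 fell (median -0.53, but 0.13 with spike-in scaling). The proteases Ctsk and Ctsd rose by 2.54 ± 0.41 and 1.11 ± 0.13, and Ctsa, Neu1 and Glb1, which share a complex, changed by -1.96 ± 0.12, -1.58 ± 0.13 and -1.52 ± 0.15. Of 18 listed autophagy genes 0 rose and 9 fell (median -0.25, but 0.41 with spike-in scaling), with Gabarapl1 at -1.34 ± 0.1. Atg9b, at least 38.0-fold higher above, was not among those listed. Of 28 iron and ferroptosis genes 6 rose and 13 fell (median 0.034, but -0.17 with normexp), the transferrin receptor Tfrc changing by -2.02 ± 0.33, the haem enzymes Alad and Uros by -1.79 ± 0.13 and -1.94 ± 0.26, and haptoglobin, Hp, by 1.25 ± 0.21.

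The markers of the labelled tissue were well above background on all 3 water arrays, with a mean level of 5.73 to 5.97 over 8 proximal tubule markers, which fell to 2.16 to 3.47 with cisplatin (8 of 8 called lower). The proximal glucose transporter Slc5a2 and the lactate transporter Slc5a12 changed by -3.25 ± 0.32 and -3.34 ± 0.4. Of 5 measured markers of the loop's thick limb and the distal tubule 5 fell (3.61 to 3.7 against -0.23 to 0.73), and of 5 collecting duct markers 3 fell (median -0.57, but 0.088 with spike-in scaling). Podocyte markers (5 of 6 fell, median -0.76, -0.1 with spike-in scaling) and endothelial markers (3 of 6, median -0.38, but 0.28 with spike-in scaling) had smaller medians. None of 6 T cell, 3 B and plasma cell or 3 neutrophil markers passed. Their median changes were 0.26, -0.41 and -0.94. Of 3 mast cell markers 1 fell (median -0.15), and of 5 erythroid markers besides the globins 3 fell (median -2.24, mean level -2.21 to -0.82 in water against -4.55 to -4.31).

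Markers of neighbouring tissue were mixed. Of 6 inner medulla markers 4 rose and 1 fell, with a mean level of -1.18 to -0.72 in water and 0.086 to 0.62 with cisplatin. Aqp4, a water channel, went from -0.93, -0.76 and -0.97 to 3.55, 2.82 and 3.49 (4.17 ± 0.34) and Akr1b1, which makes sorbitol, rose by 1.31 ± 0.21, while the urea transporter Slc14a2 gave -0.28 and did not pass, except with the slide as a block (-0.74). Averaged over all its probes Slc14a2 had the opposite sign (0.75). Of 4 urothelial markers 2 rose, and Upk2 and Upk3b were too dim to test. The adrenal Cyp11b1, Cyp11b2 and Star and the liver's Alb, Cyp3a2 and Ttr were too dim to test. Of the other 3 adrenal genes 1 rose and 2 fell, of 3 liver genes 1 rose and 1 fell, and of 4 adipocyte genes 2 rose and 1 fell. Whether any of these tissues contributed RNA was not tested.

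**Figure D4:**
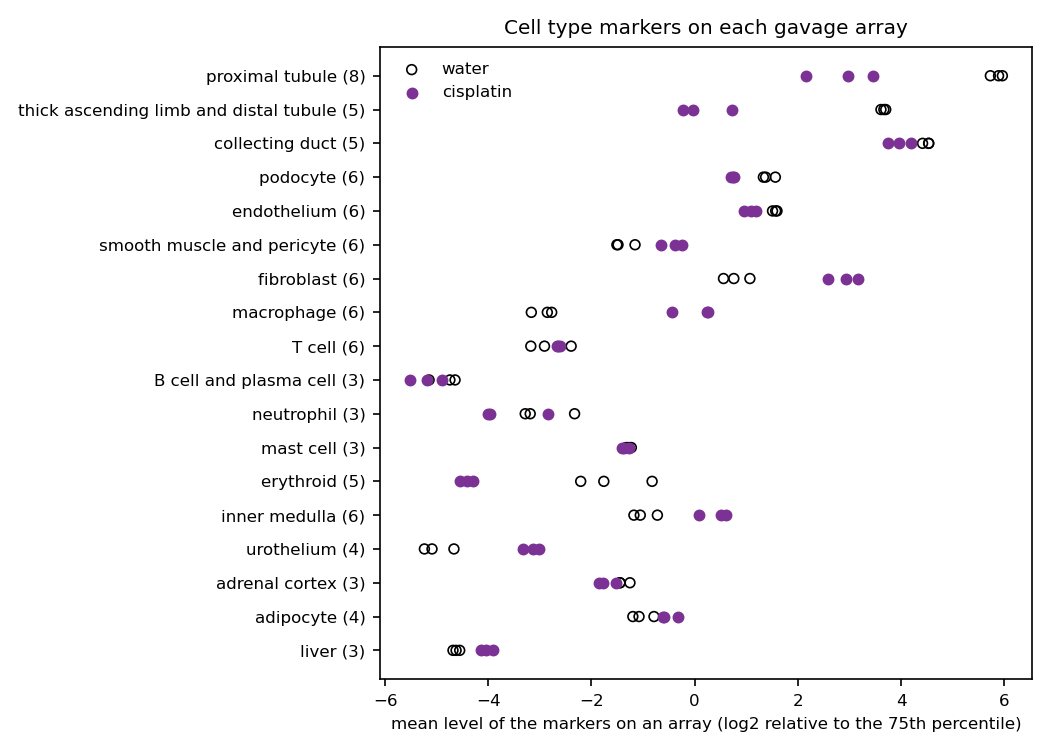
Mean level of each cell type's measured markers on each gavage array, in log2 relative to the array's 75th percentile; open circles are water and filled circles cisplatin arrays, with the number of markers in brackets. Proximal tubule markers sit at 5.73 to 5.97 in water and 2.16 to 3.47 with cisplatin, and fibroblast and macrophage markers move up.

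Set against intravenous dosing, few effects differed past the adjusted test. The intravenous effect minus the gavage effect passed for 382 of 32215 features (1.19%), 52 of them with a positive and 330 with a negative difference, and for 61 named genes. In the same limma fit 6239 features had an unadjusted p under 0.05. A difference that did not pass therefore does not show that the 2 effects were equal. The globins led: Hba-a1 was 4.61, 4.11 and 5.5 on the intravenous cisplatin arrays against 8.8, 8.68 and 8.52 in their water controls, a change of -3.93 against -6.57 after gavage (difference 2.64 ± 0.49, adjusted p = 0.0425). Differences for Hbe2, Hbb-b1, Hbb, Hba-a3 and Hbb-bs were 4.59 ± 0.77, 4.59 ± 0.78, 4.47 ± 0.79, 4.42 ± 0.7 and 4.12 ± 0.77. Cryl1, a crystallin-like sugar dehydrogenase of the kidney, went from 6.63, 6.68 and 6.73 to 3.44, 3.59 and 2.94 after gavage, a change of -3.35 ± 0.22, against -1.59 after injection (difference 1.76 ± 0.32). Kcnip4, a potassium channel partner, Enpp2, which makes lysophosphatidic acid, and Arpp21 differed by 1.59 ± 0.26, 1.15 ± 0.22 and 1.33 ± 0.26. The other measured probes of Arpp21 changed by -0.28 to 2.21 with gavage cisplatin, against -0.026 for the probe used, so its difference is uncertain. Kcnip4, lost from detection with gavage cisplatin, was at least 9.56-fold lower there. Pcsk4, a proprotein convertase, rose from 2.05, 1.92 and 1.81 to 4.04, 4.81 and 4.07 after gavage (2.38 ± 0.2) and by 0.8 after injection (difference -1.58 ± 0.28). Basp1 rose by 0.55 ± 0.16 after gavage and changed by -0.63 after injection, and the claudin Cldn23 gave 0.29 and -0.9 (differences -1.19 ± 0.23 and -1.19 ± 0.22). The gavage call of Basp1 ended with the slide as a block (0.52), without cisplatin replicate 3 (0.45) and without water replicate 3 (0.46). With the mean of all probes the gavage change was 2.45 for Cldn23, which then passed, 1.41 for Pcsk4, -0.42 for Or6z5, which did not, and 0.12 for Or5h27, against -1.32 and -0.67 for the last 2 with one probe. Or5h27 did not pass with spike-in scaling (-0.0093), nor without water replicate 1 (-0.46) or cisplatin replicate 1 (-0.58). Cdh23, Or6z5, Or5h27 and Prp2 differed by -1.43 ± 0.21, -1.64 ± 0.31, -1.47 ± 0.28 and -1.11 ± 0.22. Hsfy2, Olr951 and Or7d11c passed too, but their sizes are uncertain: Hsfy2 was not well above background on any gavage cisplatin array (at least 1.86-fold lower there), Olr951 on no gavage array and Or7d11c on no gavage water array. For Or6z5 the cisplatin arrays of the experiments overlapped (-4.32, -3.63 and -4.01 after gavage and -4.21, -4.41 and -3.74 after injection), whereas the water arrays stood apart (-2.57, -2.45 and -2.98 and -1.09, -1.1 and -1.29). The intravenous water arrays also all lay above the gavage water arrays for Pcsk4, Basp1, Cldn23, Cdh23, Or5h27, Prp2, Hsfy2, Olr951 and Or7d11c. For Pcsk4 they read 2.8, 2.63 and 2.64. They all lay below the gavage water arrays for Cryl1, Kcnip4, Arpp21 and Enpp2. These differences therefore hold a difference between the water groups, and its cause was not tested. The gavage water arrays all lay on slide 1 and the intravenous water arrays all on slide 2. Slide and experiment therefore cannot be told apart between the water groups.

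The count of such differences depended on the processing and on single arrays. By limma with quantile normalization, spike-in scaling or no filter, or without gavage cisplatin replicate 2 or 3 or gavage water replicate 2 or 3, 0 features passed in either direction (4685 to 6476 at an unadjusted p under 0.05). Without water replicate 1, 1 was higher and 1 lower, and without cisplatin replicate 1, 479 and 1930. The intravenous cisplatin arrays fill slide 3 alone, so slide and the intravenous effect cannot be told apart. By the labels dose and route also changed together.

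**Figure D5:**
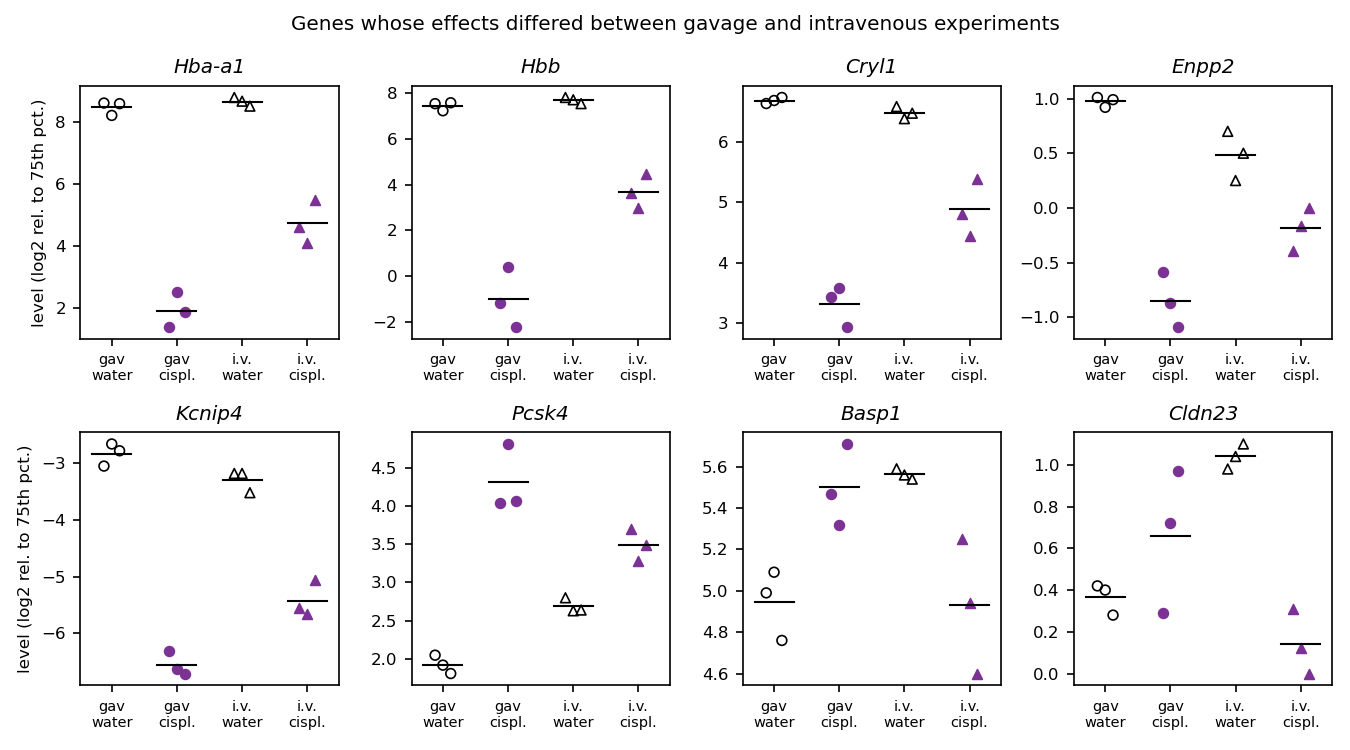
Level of 8 of the genes whose effects differed between the experiments, picked after their values were seen, on each of the 12 arrays, in log2 relative to the array's 75th percentile. Circles are gavage and triangles intravenous arrays, open for water and filled for cisplatin, and bars are group means; Hba-a1 falls by 6.57 after gavage and by 3.93 after injection.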

How the data were processed

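Total RNA of renal cortex was hybridised to 1-colour (Cy3) Agilent arrays, 1 per animal. The authors scanned the arrays and ran Agilent Feature Extraction 10.7.1.1, per the file headers (10.7 per the submitters' processing notes), which subtracted background and deposited a processed intensity for each spot. The deposited value table holds, for each probe, the ratio of that intensity to the array's 75th percentile, as a comparison with the scanner values showed; it was used only as an alternative. Array precision is limited by 3 arrays a group.

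Control spots and spots marked as uneven were left out. Of 61537 probes, 28206 matched 1 gene symbol by RefSeq accession (names from GRCr8 annotation); the others kept their accession. The probe with the highest mean stood for a feature. Of 45433 features, 32215 were tested, each well above background throughout 1 group or more. Values were log2 intensities minus the 75th percentile. limma 3.58.1 in R 4.3.3 (two-sided, Benjamini-Hochberg over all features tested) fitted 4 group means to all 12 arrays, with 8 residual degrees of freedom; the script was tested on simulated data. Adjusted p-values in the report are from this fit. Of 4254 called genes with other measured probes, 318 had a probe of opposite sign.

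Named genes were the 25 largest rises and 25 largest falls measured on all 6 gavage arrays with no overlap between groups; the 10 smallest p-values; the 10 largest bounds in each direction; the 10 widest and 10 narrowest spreads with cisplatin, the latter among changes over 3 log2 units; up to 10 differences between experiments in each direction; and members of the lists and markers. Some of these are not reported here. The members and lists were chosen with earlier results of these data known. Alternatives changed the scaling, background correction, filter, probe rule, threshold, arrays and blocks. The normexp alternative (offset 50) used median spot signals in place of the mean signals planned for it. The intravenous dose is 0.75 mg/kg/day in the sample labels and 3.75 in the treatment protocol. Replicate numbers were not taken to pair the gavage animals. The deviations of same-numbered arrays correlated at -0.083, 0.063 and -0.033, which cannot settle whether animals were paired.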

Additional observations from a re-analysis of the deposited data

Results flagged for a closer look

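For 21 genes named above the intravenous effect and the gavage effect differed by the test of the difference itself (limma, adjusted p under 0.05). The difference, intravenous minus gavage in log2, was 4.59 for Hbe2, 4.59 for Hbb-b1, 4.47 for Hbb, 4.42 for Hba-a3, 4.12 for Hbb-bs and 2.64 for Hba-a1. It was 1.76 for Cryl1, 1.59 for Kcnip4, 1.33 for Arpp21 and 1.15 for Enpp2. It was negative for Olr951 (-2.70), Hsfy2 (-2.05), Or7d11c (-1.84), Or6z5 (-1.64), Pcsk4 (-1.58), Or5h27 (-1.47), Cdh23 (-1.43), Basp1 (-1.19), Cldn23 (-1.19), Prp2 (-1.11) and Pfkp (-0.77). The sizes for Kcnip4, Hsfy2, Olr951 and Or7d11c rest on arrays not well above background. A negative difference does not mean a lower level after injected cisplatin. For Olr951 and Or6z5 the cisplatin arrays of the 2 experiments overlapped and the water arrays did not. The intravenous water arrays also all lay above the gavage ones for Hsfy2, Or7d11c, Pcsk4, Or5h27, Cdh23, Basp1, Cldn23 and Prp2. They all lay below them for Cryl1, Kcnip4, Arpp21 and Enpp2. The water arrays of the 2 experiments lay on different slides.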

How the results depend on the processing

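In the gavage comparison 9494 features were higher and 9717 lower. Relative to the spike-in controls these were 20054 and 3142 (86.5% of calls higher, against 49.4%, and 38.9% with normexp), and with a change over 1 log2 unit also required, 4306 and 3757. Leaving out each gavage array in turn gave 8489 to 9107 higher and 8690 to 9151 lower. With well above background on at least 2 of 3 arrays against at most 1 of 3, the 953 and 270 features seen in 1 group became 2460 with cisplatin and 681 with water. The difference between experiments, 52 higher (positive) and 330 lower (negative), was less stable. It gave 0 and 0 with quantile normalization, spike-in scaling and no filter. It gave 158 higher with normexp, 102 higher with all arrays well above background, and 96 higher and 497 lower with the slide as a random block; leaving out 1 gavage array gave 0 to 479 higher and 0 to 1930 lower. A fixed slide block could not be fitted for it. The replicate block, for numbers not taken to pair the animals, gave 8813 higher and 8862 lower for gavage. For the difference it gave 0 and 0 (5175 at an unadjusted p under 0.05). Of the 318 genes named, 318 kept direction and call with the authors' deposited ratios, 315 with quantile normalization, 312 with normexp, 310 with the slide as a fixed block and 299 with spike-in scaling. Turned in direction were Or5h27 with the mean of all probes (0.12) and, with spike-in scaling, Gapdh (0.22) and Pgk1 (0.012), named above only for RNA integrity. The cause of these shifts was not tested. Signal over background limits the sizes given for dim probes, as the normexp values above show.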
